A study of Mus musculus with 8 samples.

Results

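The potassium channel subunit genes were taken as every gene whose symbol in the platform annotation is Kcn, then letters, then a number, using only probe sets (groups of array probes read as 1 value) that carry that symbol alone. The rule gave 89 of the 20353 genes measured, with 768 probe sets in all. A member rested on 1 to 35 probe sets, with a median of 6, and Kcna10 alone rested on 1. RNA from the cerebellum of mice at 28 days of age was hybridised to Affymetrix Mouse Gene 1.0 ST arrays, 1 array per animal, from 4 wild-type and 4 Cic-L-null mice. Animals of both groups were on a mixed Swiss Webster (CD-1) background, and no other allele or treatment is named for either group. Cic encodes Capicua, a repressor that binds DNA and works in a complex with ataxin-1. The labels do not say how the Cic-L-null allele was made, and the label of wild-type replicate 1 alone names a Trizol and RNeasy extraction.

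Potassium channels let potassium cross the cell membrane. Its outward flow helps to set the resting potential of neurons and to end each action potential. Their pores are built from alpha subunits: voltage-gated, calcium- or sodium-activated, inwardly rectifying or leak-conducting tandem-pore proteins, and many bind auxiliary subunits that alter gating or transport. In the cerebellum these channels shape the regular firing of Purkinje cells, the excitability of granule cells and the uptake of potassium by Bergmann glia.

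Values are log2 RMA values, and a gene value is the mean over its probe sets. Differences are Cic-L-null minus wild-type on the log2 scale, so a difference of 1 is a doubling, and they were tested with limma and Benjamini-Hochberg adjustment over all 20353 genes. A gene passed at an adjusted p under 0.05. The test measures the spread between these animals, and their small number limits its precision.

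The targeted gene was checked first. Cic averaged 8.78 ± 0.28 (SD, n = 4) in wild-type mice. Its mean among the mutants was 7.54 ± 0.061 (SD, n = 4). The difference was -1.25 (SE 0.12, limma adjusted p = 0.00818), and the groups did not overlap. Array medians were 7.82 to 7.88, and no pair of arrays held identical values. Of the markers of the labelled tissue, the granule cell gene Gabra6 had a wild-type mean of 12.4 and the Purkinje cell gene Calb1 a mean of 11.6. Means of the Purkinje cell markers were 10.89 to 11.09 in wild-type arrays and 10.95 to 11.02 in the mutants, and those of the granule cell markers from 11.73 to 11.84 and from 11.81 to 11.83. All 8 of 8 markers of Bergmann glia and astrocytes averaged lower in the mutants, with array means of 10.02 to 10.16 against 9.94 to 9.98. All 7 of 7 mature oligodendrocyte markers did so too, with 10.76 to 10.83 against 10.54 to 10.68. No marker of these 4 lists passed the adjusted test. At an unadjusted p under 0.05 were 2 of the 8 glial and 3 of the 7 oligodendrocyte markers, against 9.26% of all genes. None of the Purkinje or granule cell markers were at that level. The glial gene Fabp7, outside these lists, did pass, with a difference of -1.17 (SE 0.139, limma adjusted p = 0.018). The labels do not give the sex of the animals. The mean of the Y-linked genes was above 6.21, a limit for dim genes taken from olfactory receptor genes, in 2 of 4 wild-type arrays, replicates 1 and 4, and in 3 of 4 Cic-L-null arrays, all but replicate 3. The array without that signal in the mutants is also the one with the lowest choroid plexus markers. With the Y-linked genes as a covariate, Kcnc1 differed by -0.43, Kcnb2 by 0.44 and Kcnh5 by 0.76, and 0 members were called. In a whole tissue, fewer cells of a type and less RNA per cell cannot be told apart.

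Most potassium channel genes gave a signal above the level of genes that should be silent here. The dim limit was 6.21, the value under which 95% of 985 olfactory receptor genes lay in their mean over the 8 arrays. Of the 89 channel genes, 67 (75.3%) lay above it, as did 68.8% of all genes. Values of different probe sets are not on 1 scale, so genes were not ranked by level. By role, 30 of 36 voltage-gated alpha subunits, 6 of 8 calcium- or sodium-activated channels, 8 of 15 inward rectifiers, 10 of 14 tandem-pore channels and 13 of 16 auxiliary subunits were above the limit. All 3 Kcnc, all 3 Kcnd, all 3 Kcnq, all 4 Kcng, all 4 Kcnn, all 4 Kcnmb, all 4 Kcnip and all 3 Kcnab genes measured were above it. Both Kcnv genes, which encode silent modifiers, and Kcnu1, a channel of sperm, were below it.

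**Figure D1:**
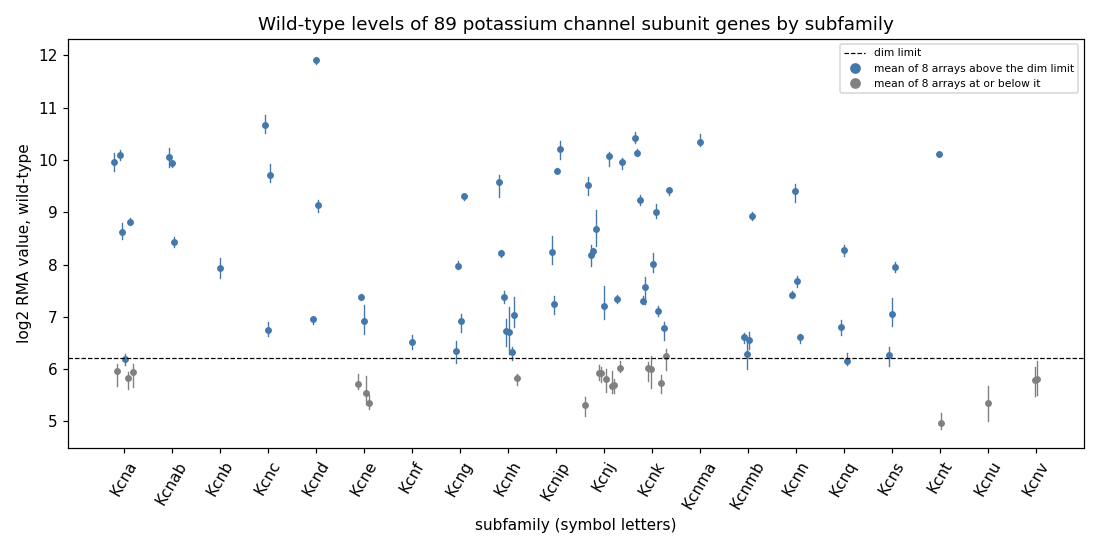
Wild-type log2 RMA value of each of the 89 channel genes, grouped by subfamily on the x axis; points are means and lines run from the lowest to the highest of the 4 wild-type arrays. The dashed line is the dim limit of 6.21, and 67 genes (blue) lie above it by their mean over all 8 arrays; heights of different genes are not comparable with each other.

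No potassium channel gene passed the adjusted test in Cic-L-null cerebellum. The call was made for 0 of 89 members and for 28 of all 20353 genes (0.138%). At an unadjusted p under 0.05 there were 16 of 89 members (18%), 8 of them higher and 8 lower in the mutants, against 9.26% of all genes. The groups did not overlap for 8 of 89 members (8.99%), 4 in each direction, against 5.94% of all genes. The mean was higher in the mutants for 35 members and lower for 54, with a median difference of -0.021, and over all genes the median was -0.0071. Differences of members ran from -0.39 to 0.74. All 16 members at an unadjusted p under 0.05 were above the dim limit. They were 23.9% of the 67 members there, against 10.3% of all genes above the limit.

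**Figure D2:**
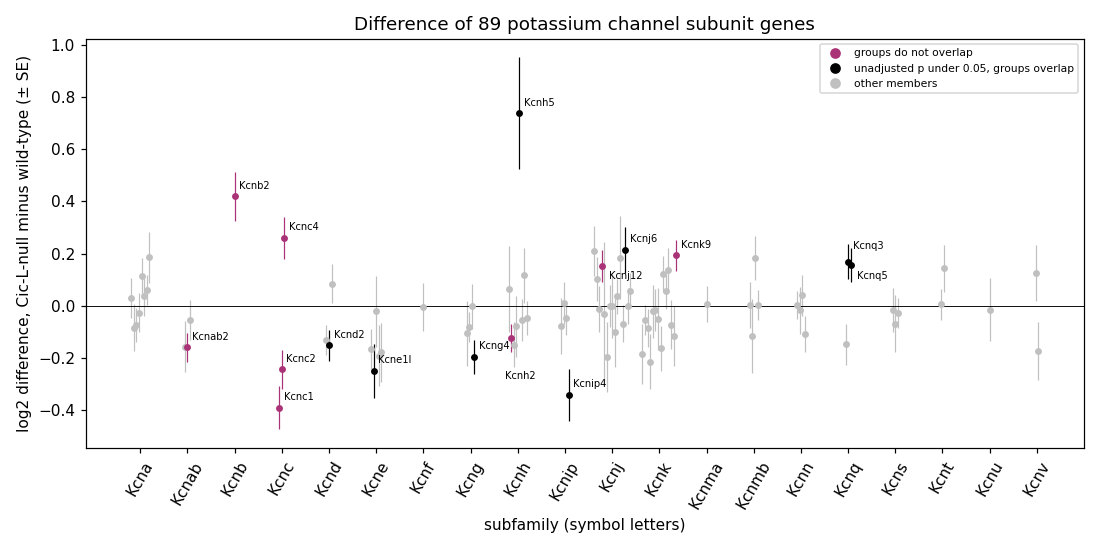
Difference in log2 RMA value, Cic-L-null minus wild-type, with its SE, for the 89 channel genes by subfamily. The 8 genes whose groups do not overlap are in purple, and the 8 others with an unadjusted p under 0.05 are in black; Kcnh5 has the highest difference at 0.74 and Kcnc1 the lowest at -0.39.

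Among voltage-gated alpha subunits, the lowest p belonged to Kcnc1, which encodes a fast delayed rectifier that lets neurons fire at high rates. Its wild-type arrays read 10.67, 10.60, 10.52 and 10.85, and its Cic-L-null arrays 10.38, 10.16, 10.21 and 10.33. Every mutant array lay below every wild-type array. The difference was -0.39 (SE 0.082, limma adjusted p = 0.120), with a 95% interval of -0.57 to -0.21. All 12 of its 12 probe sets averaged lower in the mutants, and for 7 of them the groups did not overlap. With a trended and robust variance model, 2 members were called, among 130 of all 20353 genes (0.639%). Kcnc1 was one of them, with a limma adjusted p of 0.0204. That was the only 1 of 18 alternatives that called it, and the largest limma adjusted p among them was 0.309.

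The other Kcnc genes measured differed in both directions. Kcnc2, a delayed rectifier of the same family found in interneurons, read 6.78, 6.66, 6.91 and 6.63 in wild-type and 6.47, 6.54, 6.60 and 6.41 in mutant arrays. Its difference was -0.24 (SE 0.075, limma adjusted p = 0.310). Kcnc4, whose channels inactivate quickly, read 9.58, 9.91, 9.78 and 9.60 in wild-type and 10.02, 10.03, 9.93 and 9.93 in mutant arrays. Its difference was 0.26 (SE 0.081, limma adjusted p = 0.316), with a higher mean for 4 of 4 probe sets. Neither gene's groups overlapped, so 3 of 3 Kcnc genes were at an unadjusted p under 0.05 and separated the groups, 2 lower and 1 higher in the mutants. Over all genes, 9.26% were at that level and 5.94% separated the groups, and a count over 3 genes is a description only. The 3 genes lay on the same sides under all 18 alternatives tried, but most of these could not have differed. Leaving out 1 array, or changing only the variance model, cannot turn the sign where groups do not overlap.

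Kcnb2 encodes a slow delayed rectifier of the cell body and dendrites. Its arrays read 8.13, 7.99, 7.90 and 7.74 in wild-type and 8.46, 8.27, 8.48 and 8.23 in the mutants. Every mutant array was above every wild-type array, the nearest pair reading 8.23 and 8.13. The difference was 0.42 (SE 0.093, limma adjusted p = 0.144), with a 95% interval of 0.21 to 0.62, and 3 of 3 probe sets were higher. Under the trended and robust variance model it was the second member called, with a limma adjusted p of 0.0442. No other alternative of the 18 called Kcnb2, and the largest limma adjusted p among them was 0.421.

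The Kcng genes encode silent subunits that form channels only together with Kcnb subunits. All 4 measured averaged lower in the mutants, although Kcng3, at -0.0012, turned to the other side when arrays were centred on their medians. Likewise 1 of the 4 averaged higher with the covariate of Y-linked genes. The same count held without wild-type replicate 2, 3 or 4, and without Cic-L-null replicate 1, 3 or 4. Kcng4 read 9.33, 9.24, 9.32 and 9.31 in wild-type and 9.03, 9.06, 9.26 and 9.07 in mutant arrays. Only mutant replicate 3, at 9.26, reached into the wild-type range, and the difference was -0.20 (SE 0.065, limma adjusted p = 0.347). Kcng2 differed by -0.082 (SE 0.058). The silent subunits Kcns2 and Kcns3 differed by -0.068 and -0.027, Kcnf1 by -0.0053, and Kcnv1 and Kcnv2 by 0.13 and -0.17, none with an unadjusted p under 0.05.

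The ether-à-go-go family, the Kcnh genes, held the member with the largest difference. Kcnh5 read 6.88, 7.19, 6.45 and 6.29 in wild-type arrays and 7.95, 7.43, 7.31 and 7.08 in Cic-L-null arrays. Its lowest mutant array, 7.08, was below its highest wild-type array, 7.19, and the SDs were 0.41 and 0.37. The difference was 0.74 (SE 0.21, limma adjusted p = 0.278), a fold of 1.67 with a 95% interval of 0.26 to 1.21 on the log2 scale. All 12 of 12 probe sets had a higher mean in the mutants, from 0.037 to 1.13. Kcnh2, which encodes a channel that recovers quickly from inactivation, had a narrow gap between the groups, from 8.15 to 8.28 in wild-type and from 8.08 to 8.14 in mutant arrays. Its difference was -0.12 (SE 0.055, limma adjusted p = 0.536). Kcnh1 differed by 0.065 (SE 0.16) and Kcnh7 by 0.12 (SE 0.11), each with overlapping groups.

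Kcnd2 encodes the pore of the A-type current of granule cells, a current that activates below threshold and delays firing. It read 11.96, 11.84, 11.89 and 11.94 in wild-type and 11.71, 11.71, 11.86 and 11.74 in mutant arrays. The difference was -0.15 (SE 0.059, limma adjusted p = 0.448), with 8 of 8 probe sets lower and with mutant replicate 3 inside the wild-type range. Kcnd1 differed by -0.13 (SE 0.059), and Kcnd3, the A-type subunit of Purkinje cells and interneurons, by 0.084 (SE 0.075).

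Kcnip4 encodes a cytosolic calcium-binding protein that joins Kcnd channels and alters their gating and transport. It read 10.37, 10.07, 10.01 and 10.36 in wild-type arrays and 9.79, 9.74, 10.03 and 9.88 in mutant arrays. Wild-type replicates 1 and 4 stood above the other wild-type arrays, and mutant replicate 3 reached into the wild-type range. Wild-type replicates 1 and 4 are the wild-type arrays with Y-linked signal, and mutant replicate 3 is the mutant array without it. The difference was -0.34 (SE 0.098, limma adjusted p = 0.268), and 15 of 15 probe sets were lower in the mutants. With a covariate of Y-linked genes the difference was -0.36 (SE 0.10, limma adjusted p = 0.299). Of the other Kcnip genes, Kcnip1 differed by -0.078 (SE 0.11) and Kcnip3 by -0.047 (SE 0.064). Over the 8 arrays, Kcnip4 was the member most like Kcnc1, with a Pearson r of 0.846, and 0.541 after group means were taken out. Kcnk2 (0.772 and 0.676) and Kcnab2 (0.769 and 0.00658) came next. These correlations are descriptions over 8 arrays that share the group difference.

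Shaker-type channels, the Kcna genes, line axons and terminals, and in the cerebellum they are dense on the endings of basket cells. Kcna1 differed by 0.029 (SE 0.077, 95% interval -0.14 to 0.20), Kcna2 by -0.072 (SE 0.065, -0.22 to 0.073) and Kcna6 by 0.061 (SE 0.058, -0.068 to 0.19). Kcna4 differed by 0.12 (SE 0.069) and Kcna7, below the dim limit, by 0.19 (SE 0.098). None of the 8 Kcna genes reached an unadjusted p under 0.05. Their cytoplasmic beta subunits, the Kcnab genes, averaged lower in the mutants for 3 of 3 genes, also under every normalisation tried. Without Cic-L-null replicate 2, however, 1 of the 3 averaged higher. Kcnab3 differed by -0.056 (SE 0.076), with that array at 8.17 and the other mutant arrays from 8.42 to 8.46. Kcnab2 read 9.99, 9.87, 9.94 and 9.95 in wild-type and 9.76, 9.75, 9.85 and 9.74 in mutant arrays. The groups came close at 9.87 and 9.85 but did not overlap. The difference was -0.16 (SE 0.056, limma adjusted p = 0.379), and 19 of 19 probe sets were lower. Kcnab1 differed by the same -0.16 (SE 0.097), with 18 of 19 probe sets lower and overlapping groups.

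Kcnq3 and Kcnq5 encode subunits of the M-current, a slow current that muscarinic receptors shut. Kcnq3 read 8.30, 8.16, 8.38 and 8.26 in wild-type and 8.46, 8.32, 8.45 and 8.54 in mutant arrays. Its difference was 0.17 (SE 0.069, limma adjusted p = 0.471), with 14 of 15 probe sets higher. Kcnq5 differed by 0.16 (SE 0.065, limma adjusted p = 0.487), with 11 of 14 probe sets higher. Kcnq1, best known as a channel of heart and epithelia, differed by -0.15 (SE 0.078), with 13 of 20 probe sets lower. In all 3 genes the groups overlapped.

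**Figure D3:**
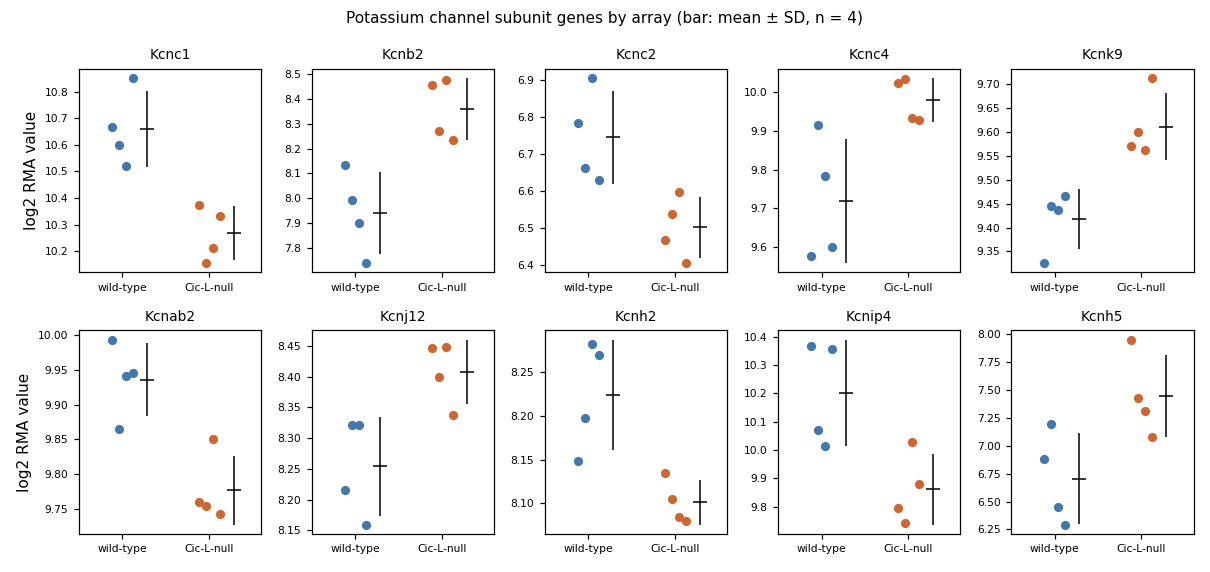
Log2 RMA value of 10 channel genes on each array, with the group mean ± SD (n = 4) beside the points; each panel has its own y axis. The first 8 panels, from Kcnc1 to Kcnh2, show no overlap between the groups, whereas in Kcnip4 and Kcnh5 the groups overlap.

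Differences of the 8 calcium- and sodium-activated channels ran from -0.11 to 0.14, with a median of 0.0040. These channels couple calcium or sodium entry to hyperpolarisation and pace the firing of Purkinje cells. Kcnma1, the pore of the large-conductance (BK) channel, read 10.49, 10.26, 10.32 and 10.28 in wild-type and 10.43, 10.24, 10.34 and 10.37 in mutant arrays. Its difference was 0.0068 (SE 0.070, 95% interval -0.15 to 0.16) over 35 probe sets, 16 higher and 19 lower. Its brain beta subunit Kcnmb4 differed by 0.0034 (SE 0.058), and the beta subunits Kcnmb2 and Kcnmb3 by -0.12 (SE 0.14) and 0.18 (SE 0.084). The small-conductance channels Kcnn1, Kcnn2 and Kcnn3 differed by 0.0024, -0.017 and 0.040, and the sodium-activated Kcnt1 by 0.0056 (SE 0.059). Kcnn4 differed by -0.11 (SE 0.069), and Kcnt2 and Kcnu1, both below the dim limit, by 0.14 and -0.016. Of the 8 genes of this class, 0 were at an unadjusted p under 0.05 and 0 had groups that did not overlap, which for 8 genes is near the shares of all genes (9.26% and 5.94%). The 95% interval of Kcnn2 ran from -0.22 to 0.18.

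Among 15 inward rectifiers, 8 averaged higher in the mutants and 7 lower. At an unadjusted p under 0.05 were 2 of the 15, both higher, against 9.26% of all genes. Kcnj12, a strong inward rectifier, read 8.22, 8.32, 8.32 and 8.16 in wild-type and 8.45, 8.40, 8.45 and 8.34 in mutant arrays. The groups did not overlap, and the difference was 0.15 (SE 0.061, limma adjusted p = 0.458). Of its 7 probe sets 6 were higher, with differences from -0.050 to 0.55. Over the 18 alternatives the difference of Kcnj12 ran from 0.013 to 0.18, although with 1 array left out it stayed between 0.12 and 0.18. Kcnj6, a channel opened by G proteins, read 7.41, 7.40, 7.28 and 7.27 in wild-type and 7.63, 7.30, 7.59 and 7.70 in mutant arrays. Its difference was 0.21 (SE 0.087, limma adjusted p = 0.472), with 15 of 17 probe sets higher, and mutant replicate 2 lay within the wild-type range. Its partner subunits Kcnj3 and Kcnj9 differed by 0.036 (SE 0.068) and 0.058 (SE 0.069).

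Some inward rectifiers belong to cells other than neurons. Kcnj10, the potassium uptake channel of astrocytes and Bergmann glia, read 9.34, 9.67, 9.58 and 9.52 in wild-type and 9.66, 9.49, 9.62 and 9.75 in mutant arrays. Its difference was 0.10 (SE 0.084, 95% interval -0.082 to 0.29), and its partner Kcnj16 differed by 0.00094 (SE 0.13). The markers of Bergmann glia and astrocytes had a median difference of -0.13, and their part in these values was not tested. Kcnj8, a channel of pericytes that is gated by ATP, was below the dim limit and differed by -0.00096.

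Kcnj13 marks the choroid plexus epithelium, which can come along with a dissected cerebellum, and its difference had the largest SE of the 15 inward rectifiers. It read 8.58, 8.71, 9.04 and 8.35 in wild-type and 9.37, 8.80, 7.81 and 8.57 in mutant arrays, for a difference of -0.030 (SE 0.27). Cic-L-null replicate 1 was the highest of all 8 arrays and replicate 3 the lowest. The mean of the 7 choroid plexus markers measured had the same extremes, at 8.38 in Cic-L-null replicate 1 and 7.28 in replicate 3, with 7.92 to 8.32 in wild-type arrays. Ttr, the transthyretin gene of that epithelium, was 10.92 in replicate 3 and 12.64 in replicate 1. Kcne2, an auxiliary subunit made there, read 6.68, 7.02, 7.22 and 6.73 in wild-type and 7.20, 6.84, 6.83 and 6.70 in mutant arrays, a difference of -0.021 (SE 0.14). Without Cic-L-null replicate 3, Kcnj13 gave 0.25. The part of the choroid plexus in these values was not tested.

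**Figure D4:**
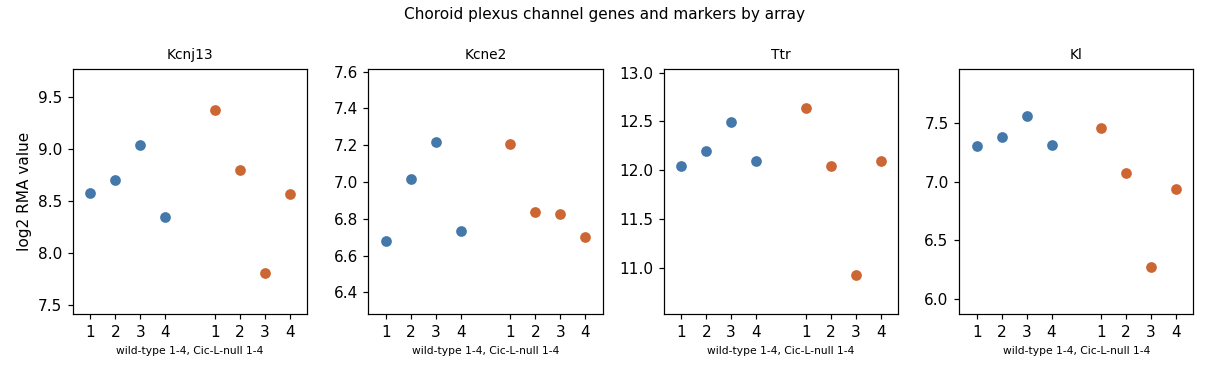
Log2 RMA value of the channel genes Kcnj13 and Kcne2 and of the choroid plexus genes Ttr and Kl on each array, replicates 1 to 4 of wild-type (blue) and Cic-L-null (orange); each panel has its own y axis. Cic-L-null replicate 3 is the lowest array for Kcnj13 (7.81), Ttr (10.92) and Kl (6.27), but for Kcne2 wild-type replicate 1 is the lowest (6.68).

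The tandem-pore channels carry the leak current of resting neurons. Of 14, the mean was higher in the mutants for 4 and lower for 10, with a median of -0.053. Kcnk9, an acid-sensitive leak channel abundant in granule cells, read 9.33, 9.44, 9.44 and 9.47 in wild-type and 9.57, 9.60, 9.56 and 9.71 in mutant arrays. The groups did not overlap, the difference was 0.19 (SE 0.061, limma adjusted p = 0.320), and 2 of 2 probe sets were higher. Kcnk3, which pairs with it, differed by 0.12 (SE 0.069), with 6 of 6 probe sets higher. Kcnk1 differed by -0.18 (SE 0.12) and Kcnk13, a channel of microglia, by -0.21 (SE 0.10). In Kcnk1, Cic-L-null replicate 1 was the highest of all arrays at 10.58 and replicate 3 the lowest at 9.96. The choroid plexus markers had the same extremes, and the part of that tissue was not tested.

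The Kcne genes encode small single-pass subunits that join several alpha subunits. All 5 averaged lower in the mutants, but 3 of them were below the dim limit, and with dim probe sets left out 2 of 5 were higher. Kcne1l, as the platform names it, read 7.43, 7.32, 7.44 and 7.36 in wild-type and 7.17, 7.09, 7.42 and 6.87 in mutant arrays. Mutant replicate 3, the mutant array without Y-linked signal, alone lay in the wild-type range. The difference was -0.25 (SE 0.10, limma adjusted p = 0.472). With a covariate of Y-linked genes, Kcne1l, a gene of the X chromosome, differed by -0.21 (SE 0.098, limma unadjusted p = 0.0602). Kcne1, below the dim limit, differed by -0.17 (SE 0.075). Over the 16 auxiliary subunits, 12 had a lower mean and 4 a higher one, with a median of -0.096. Of the 16, 3 were at an unadjusted p under 0.05, all lower. For comparison, 10796 of all 20353 genes averaged lower and 9.26% were at that level.

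The 8 members on the chromosome that carries Cic were set beside the members on other chromosomes. Of them, 7 averaged lower in the mutants and 1 higher, with a median of -0.13, against 47 lower and 34 higher of the 81 others, with a median of -0.016. Of the 8, 3 were below the dim limit, and over all 20353 genes 10796 averaged lower. Kcnc1 is one of the 8 and the only one of them at an unadjusted p under 0.05. The gene next to it, Sergef, averaged 8.71 in wild-type mice against 7.99 in the mutants, a difference of -0.72 (SE 0.10, limma adjusted p = 0.0258). Its groups did not overlap, and it was one of the 28 genes that passed. On the other side, Myod1 differed by -0.082 (SE 0.086), and the nearby Kcnj11, the pore of the ATP-sensitive channel, by -0.013 (SE 0.089). Whether the value of Kcnc1 is tied to its position was not tested.

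Single probe sets were also set against the other probe sets of their gene with limma's diffSplice. Of 767 member probe sets tested, 3 departed at an adjusted p under 0.05 (0.391%), against 0.326% of all 209837 tested. In Kcnc1, probe set 10553269 read 9.05, 9.04, 8.58 and 9.54 in wild-type and 8.11, 7.53, 7.67 and 8.15 in mutant arrays. Its difference of -1.19 (SE 0.22) departed by -0.87 from that of the gene's other probe sets (diffSplice adjusted p = 5.3e-05). In Kcnk5, a tandem-pore channel below the dim limit, probe set 10417805 had means of 4.73 and 6.05, both under the dim limit for probe sets of 6.31. Its difference was 1.32 and its departure 1.35 (diffSplice adjusted p = 0.00179). The probe set beside it in number, 10417806, lay the other way, with a difference of -0.51 and a departure of -0.74 (diffSplice adjusted p = 0.361). In Kcnt1, probe set 10470215 differed by 0.57, a departure of 0.58 (diffSplice adjusted p = 0.0229). The test assumes 1 variance for all probe sets of a gene. With each probe set's own variance in limma, an alternative chosen after the data were seen, 0 of 767 member probe sets and 0 of all 209837 passed, and 39 and 10548 were at an unadjusted p under 0.05. The smallest p then belonged to Kcnk5 probe set 10417806 (limma adjusted p = 0.638), and the Kcnc1 probe set had an adjusted p of 0.723.

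**Figure D5:**
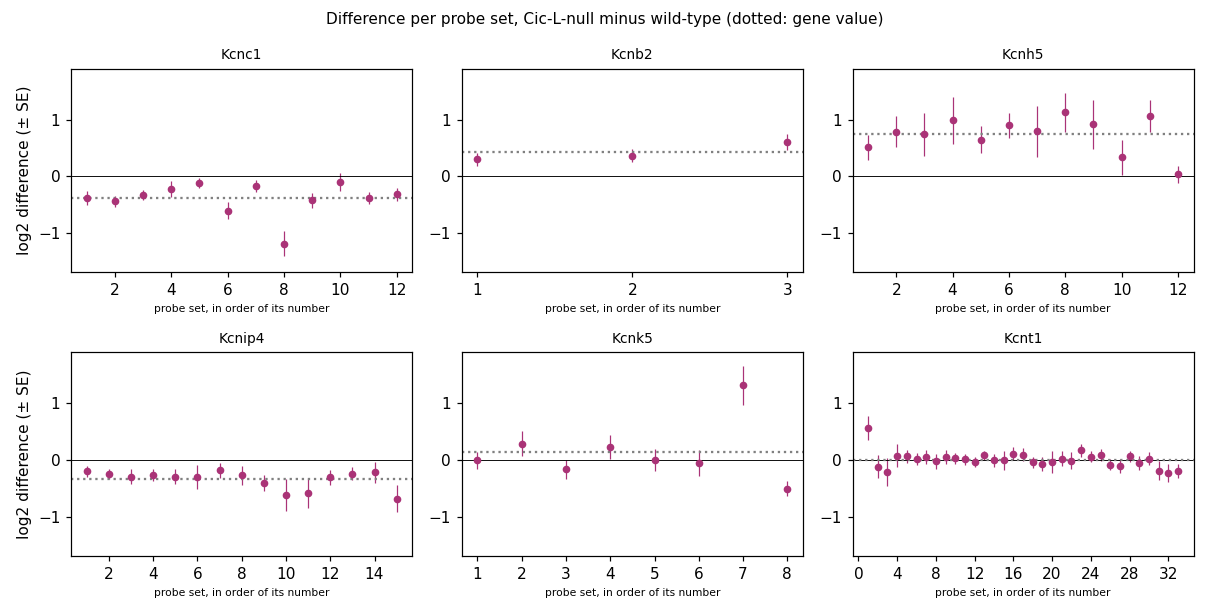
Difference in log2 RMA value, Cic-L-null minus wild-type, with its SE, for each probe set of 6 channel genes, in order of probe set number; the dotted line is the difference of the gene value. All 12 probe sets of Kcnc1 and all 15 of Kcnip4 lie below 0 and all 12 of Kcnh5 above it, and 1 probe set each of Kcnc1 (-1.19), Kcnk5 (1.32) and Kcnt1 (0.57) was called as departing, while another of Kcnk5 lies at -0.51.

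Capicua binds octamers of the form TGAATGAA, and the promoters of the channel genes were searched for TGAATGAA, TGAATGGA, TCAATGAA and TCAATGGA on both strands. RefSeq promoter windows (GRCm38.p6, 250 bases before to 50 after the gene's start) were found for 68 of the 89 members, with 93 windows. An octamer was present in 4 of 93 member windows (4.3%) and in 1260 of 32851 windows of all genes (3.84%). All 4 matches are shown, in Kcnip4, which differed by -0.34 (limma adjusted p = 0.268), Kcnip1 (-0.078), Kcnj10 (0.10) and Kcns3 (-0.027). Whether an octamer has a part in these values was not tested. Each stretch of 50 bases is written 5′ to 3′ on the strand of the gene, and capitals mark the octamer, which reads in the listed form on the opposite strand.
Kcnip4, chr5:49285715-49285764, minus strand: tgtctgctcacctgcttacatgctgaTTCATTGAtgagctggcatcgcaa
Kcnip1, chr11:33843662-33843711, minus strand: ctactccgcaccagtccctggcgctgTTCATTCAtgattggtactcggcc
Kcnj10, chr1:172341175-172341224, plus strand: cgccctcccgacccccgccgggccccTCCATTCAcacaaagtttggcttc
Kcns3, chr12:11151006-11151055, minus strand: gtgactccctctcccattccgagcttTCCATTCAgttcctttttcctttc
The octamer begins 79 bases before the start in Kcnip4, 9 before it in Kcnj10, 187 before it in Kcns3 and 1 base after it in Kcnip1. Of these 4 genes, Kcnip4 alone was at an unadjusted p under 0.05. A match is a run of letters and not a binding site.

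Proteins that hold potassium channels in place or regulate them, but lie outside the symbol rule, were described from a list of 40 genes, of which 39 were measured. None passed the adjusted test, 6 were at an unadjusted p under 0.05 (3 higher and 3 lower), and the median difference was 0.019. Over all genes, 9.26% were at that level. The groups did not overlap for 5 of the 39, against 5.94% of all genes. Cntnap2, which clusters Shaker-type channels beside the node of Ranvier, read 9.19, 9.02, 9.01 and 8.97 in wild-type and 9.21, 9.30, 9.30 and 9.43 in mutant arrays. Its difference was 0.26 (SE 0.070, limma adjusted p = 0.238). Adam22 and Adam23, receptors of LGI proteins that sit in complexes with Shaker-type channels, differed by 0.15 (SE 0.058) and -0.14 (SE 0.060). Amigo1, an adhesion protein that binds Kcnb channels, differed by -0.14 (SE 0.054). The BK gamma subunits Lrrc55 and Lrrc26 differed by -0.22 (SE 0.095) and 0.20 (SE 0.090).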

How the data were processed

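The authors deposited log2 values; the submitters' processing notes name RMA and Affymetrix Power Tools. No version or genome build is given in the sources used here. Genes were named from the platform annotation, which is old: of 241576 probe sets, 212097 had 1 symbol, 4475 several (left out, 2 of them with a member's symbol) and 25004 none. Probe sets of a gene were averaged on the log2 scale. RefSeq tables (GRCm38.p6) gave current symbols, gene order, chromosomes and promoters.

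The main fit was limma 3.58.1 in R 4.3.3 (lmFit, eBayes without trend), with the group as the only term and no filter on dim genes. Probe set departures used diffSplice. Tables were made in Python 3.11.15. Both fits were run on simulated data as a check of the code. The changes added there were larger than the differences of most members. That run therefore does not tell how small a difference the fits can find. The members and lists were chosen with earlier results of these data known.

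Members named are those called, those at an unadjusted p under 0.05, up to 2 per subfamily with the smallest p, and a list of 33 with known roles in cerebellum, of which 30 were measured. Partners with an unadjusted p under 0.05, up to 6, and called probe sets were also named. Replicate numbers appear in both groups' titles, but same-numbered arrays deviated together only weakly, so they were not taken as pairs. Alternatives covered the combination and filtering of probe sets, normalisation, variance, array weights, a covariate of Y-linked genes, the replicate number as a block, the test and each array left out.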

Additional observations from a re-analysis of the deposited data

Results flagged for a closer look

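Each named member was examined in each group for 1 array far from the other 3, and such an array was found in 4 of 112 groups. Chance gives about 1 in 20 groups. The beta subunit gene Kcnab2 had its highest mutant value, 9.85, in Cic-L-null replicate 3, with the other 3 arrays between 9.743 and 9.76. In the leak channel gene Kcnk3, Cic-L-null replicate 2 was lowest at 9.033, with the others between 9.146 and 9.164. In the BK beta subunit gene Kcnmb3, Cic-L-null replicate 4 was lowest at 6.6, with the others between 6.793 and 6.8. In the small-conductance channel gene Kcnn2, Cic-L-null replicate 3 was highest at 9.579, with the others between 9.307 and 9.344. Among these 4 genes, none passed the adjusted test.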

How the results depend on the processing

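Leaving out each array in turn gave 0 to 0 members called, 9 to 21 at an unadjusted p under 0.05, 8 to 20 without overlap, 33 to 44 with a higher mean in Cic-L-null, medians from -0.057 to -0.00014 and 2 to 4 departing probe sets. Of all genes, 0 to 37 were called in these fits, 6.98% to 13.5% were at an unadjusted p under 0.05 and 7.72% to 13.6% did not overlap, so where few genes are called 0 members says little. The count at an unadjusted p under 0.05 was 9 (10.1%) without wild-type replicate 4, against 7.12% of all genes. The count without overlap was 20 (22.5%) without wild-type replicate 1, 15 (16.9%) without wild-type replicate 2 and 15 without Cic-L-null replicate 3, where fewer arrays can overlap, against 13.6%, 8.1% and 9.96% of all genes. With the median of the probe sets, 10 members (11.2%) were at an unadjusted p under 0.05 and 4 (4.49%) did not overlap, against 8.21% and 5.11% of all genes. The trended and robust variance called 2 members. With each probe set's own variance, an alternative chosen after the data were seen, 0 probe sets departed. The causes were not tested.

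The replicate number as a block called 0 of all 20353 genes, and so 0 members. It put 20 members (22.5%) at an unadjusted p under 0.05, against 10.4% of all genes, and gave 3 departing probe sets among 812 of all 209837. Correlations of deviations for same-numbered arrays were 0.219, 0.00013, 0.207 and 0.026, and only numbers 1 and 3 correlated best with their own.

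For 56 named members, 71 of 1001 values over 18 alternatives had the other sign, and 37 members kept their sign throughout. The members whose sign turned had differences near 0, or wide spreads, and did not pass the adjusted test. With the median of the probe sets, Kcnf1 was 0.018, Kcnj3 -0.025, Kcnj8 0.098, Kcnma1 -0.034, Kcnmb4 -0.016, Kcns3 0.087 and Kcnu1 0.034. With dim probe sets left out, Kcnj8 was 0.074, Kcnma1 -0.0024, Kcnn1 -0.0050 and Kcnv2 0.0026. After a further quantile normalisation, Kcnf1 was 0.00082, Kcnj8 0.015, Kcnma1 -0.0031, Kcnmb4 -0.0055 and Kcnu1 0.0045. After centring, Kcnj8 was 0.0025. With array weights, Kcnj13 was 0.0053, Kcnmb4 -0.015 and Kcnn1 -0.021. With the covariate of Y-linked genes, Kcne2 was 0.031, Kcnf1 0.040, Kcnj16 -0.037, Kcnj8 0.0030 and Kcnma1 -0.0079. With 1 array left out, the ranges were -0.029 to 0.085 for Kcna1, -0.13 to 0.081 for Kcne2, -0.061 to 0.062 for Kcnf1, -0.028 to 0.24 for Kcnh1, -0.16 to 0.021 for Kcnip1 and -0.27 to 0.25 for Kcnj13. They were -0.081 to 0.13 for Kcnj16, -0.024 to 0.067 for Kcnj3, -0.029 to 0.044 for Kcnj8, -0.021 to 0.057 for Kcnma1, -0.022 to 0.026 for Kcnmb4 and -0.017 to 0.025 for Kcnn1. They were -0.083 to 0.027 for Kcnn2, -0.013 to 0.085 for Kcnn3, -0.14 to 0.033 for Kcns2, -0.056 to 0.0034 for Kcns3, -0.017 to 0.043 for Kcnt1 and -0.13 to 0.093 for Kcnu1.

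With only genes above the dim limit in the fit, members below it had no value. The 4 animals per group limit the precision, and signals near the dim limit hide differences.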
